A study of Mus musculus with 6 samples.

Results

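The genes described here are 8 scavenger receptors, Msr1 and Marco of class A, Cd36, Scarb1 and Scarb2 of class B, Cd68 of class D, Olr1 of class E and Stab1 of class H. They were chosen by gene symbol, as every probe set to which the array's annotation gives only that symbol. This took 8 probe sets, 1 for each of the 8 genes, out of 21601 probe sets with a single symbol and a value on all arrays. Scavenger receptors are membrane proteins grouped by their ability to bind modified lipoproteins and other polyanionic or lipid ligands, and by domain structure rather than common descent. Macrophages use them to take up oxidised low-density lipoprotein, dying cells and microbes, and several also act in lipid exchange on platelets, endothelium, liver and fat. In bone marrow they are best known from resident macrophages and sinusoidal endothelium.

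The arrays measured RNA of cells sorted from mouse bone marrow as Lin-c-Kit+Sca-1+, a gate that holds blood stem cells and early progenitors. All donors received 5-fluorouracil, all marrow was transduced with a retrovirus and transplanted into B6 recipients, and GFP-positive Lin-c-Kit+Sca-1+ cells were collected at day 14. The strain label was C57BL/6 (B6) and the age label 8 weeks for all groups. HSC were cells of wild-type donors without BCR-ABL, the fusion kinase of chronic myeloid leukaemia, and received GFP alone. LSC (leukaemia stem cells) were BCR-ABL/GFP cells of wild-type donors, and Alox5-/- LSC were BCR-ABL/GFP cells of donors lacking Alox5, the 5-lipoxygenase gene. Each group had 2 arrays (n = 2 for every mean, SD and SE below), labelled as biological replicates. How many animals gave cells to each array is not given in the sources used here, and p-values measure only the spread between these samples, which may be technical. BCR-ABL came from a retrovirus, not from its own promoter, and Alox5-/- cells with the vector alone were not analysed here. In sorted populations, fewer cells of a type and less RNA per cell cannot be told apart.

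The deposited values are scores whose unit is not stated. They ran from 0 to 62.1, and 33.5% to 53.7% of the values of an array lay above 16, the limit of log2 of a 16-bit scan. A set of 191 probe sets of ribosomal protein genes and other genes that every cell uses had array medians of 10.7 to 12.4. By contrast, 1034 olfactory receptor probe sets, for genes that blood cells do not use, had medians of 15.3 to 17.0, and 173 vomeronasal receptor probe sets had medians of 15.0 to 16.6. The widely used genes had the lower medians on all 6 arrays, so a higher score cannot be read as more RNA. "Higher" and "lower" refer to the score alone, with no fold change, and no score of 1 gene is set against another as a level of RNA.

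**Figure D1:**
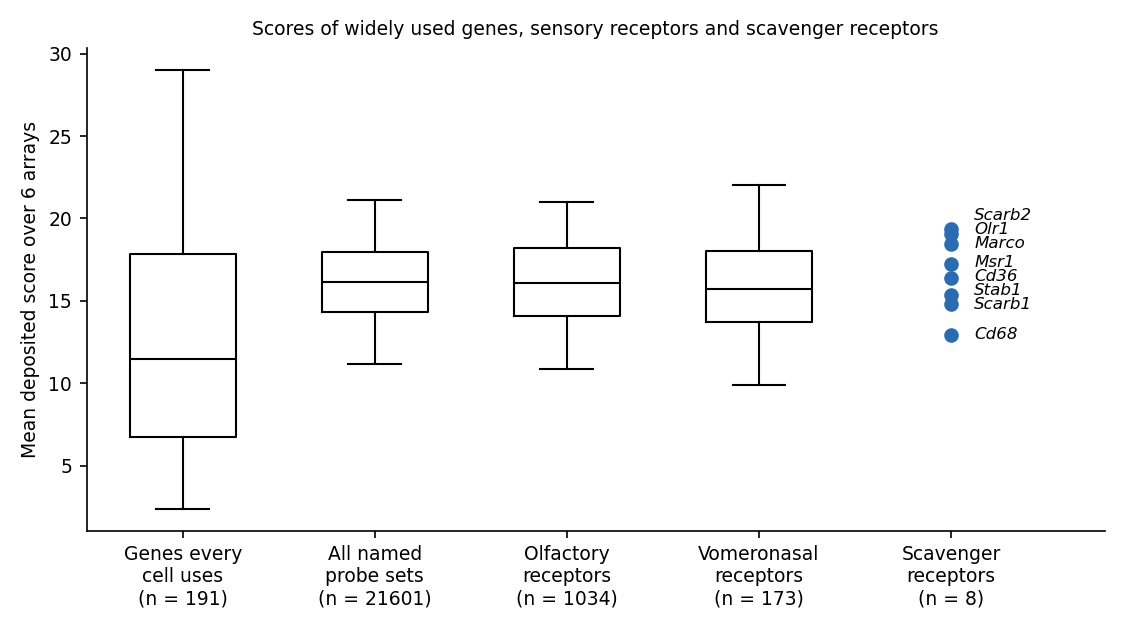
Mean deposited score over the 6 arrays (vertical axis, unit not stated) for 4 sets of probe sets and for the 8 scavenger receptors. Boxes span the quartiles with the median as a line, and whiskers reach from the 5th to the 95th percentile. The 191 probe sets of genes every cell uses have a median of 11.5, below 16.1 for olfactory receptors, and the scavenger receptors run from 13.0 (Cd68) to 19.4 (Scarb2).

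Medians over all named probe sets ran from 14.9 to 17.0 across the arrays. Arrays of a group correlated at 0.794 to 0.824 across probe sets and arrays of different groups at 0.782 to 0.839, so the arrays of a group were not more alike than others. Alox5 scored 13.2 and 14.2 in LSC and 14.4 and 13.5 in Alox5-/- LSC. The groups overlapped, with a difference of 0.26 ± 2.24 (SE) for Alox5-/- LSC minus LSC. The Alox5 score thus did not tell the genotypes apart in either direction, and this does not check the genotype. Of the gate genes, Kit scored 10.5 to 15.4 over the arrays, and Ly6a (Sca-1) was not among the probe sets with a single symbol. A direct check of the gate was therefore not had.

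RefSeq promoter sequences (assembly GRCm38.p6) were listed for 6 of the 8 genes, and not for Msr1 and Scarb1. Marco and Olr1 are shown because their scores separated HSC from Alox5-/- LSC. Each sequence runs 5′ to 3′ from 250 bases before the start site to 50 bases after it. Capitals mark matches, on either strand, to GAGGAA, the core bound by PU.1 (Spi1), a transcription factor of the macrophage lineage, or TGANTCA, the AP-1 motif. Marco lies at chr1:120504975-120505274 and Olr1 at chr6:129507116-129507415, both on the minus strand.
Marco: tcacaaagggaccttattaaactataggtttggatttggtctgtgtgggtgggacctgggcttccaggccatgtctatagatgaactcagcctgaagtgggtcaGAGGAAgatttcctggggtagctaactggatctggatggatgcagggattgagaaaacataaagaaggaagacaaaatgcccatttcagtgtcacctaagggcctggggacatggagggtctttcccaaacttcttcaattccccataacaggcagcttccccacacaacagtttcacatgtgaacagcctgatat
Olr1: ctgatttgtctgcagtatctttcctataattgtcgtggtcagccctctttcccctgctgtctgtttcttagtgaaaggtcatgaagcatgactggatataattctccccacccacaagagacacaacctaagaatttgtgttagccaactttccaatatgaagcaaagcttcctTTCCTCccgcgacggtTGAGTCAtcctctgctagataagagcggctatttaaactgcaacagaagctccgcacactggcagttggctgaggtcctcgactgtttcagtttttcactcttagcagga

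The Marco window held 1 GAGGAA match, beginning at -146 from the start site, and 0 matches to TGANTCA. Olr1 had 1 GAGGAA match at -76 (on the opposite strand) and 1 TGANTCA match at -60, which did not overlap. Over the 6 listed genes, 4 windows held GAGGAA and 2 held TGANTCA, and 0 held TTCNNNGAA, the motif of STAT factors, in which N is any base. Among all 32851 promoter windows of that length, 28.3% held GAGGAA, 7.81% TGANTCA and 8.30% TTCNNNGAA. These matches describe the letters of the windows and are not shown to be sites.

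Msr1 encodes the class A macrophage receptor that binds acetylated and oxidised lipoproteins through a collagen-like stalk. It scored 16.5 and 19.4 in HSC, 16.2 and 14.7 in LSC, and 21.9 and 14.7 in Alox5-/- LSC. LSC scores lay below both HSC scores, by a margin of under 1 unit, while the 2 Alox5-/- LSC arrays held the highest of the 6 scores and 1 of the 2 lowest. The group means were 18.0 ± 2.06 (SD) for HSC, 15.5 ± 1.12 for LSC and 18.3 ± 5.08 for Alox5-/- LSC. LSC minus HSC was -2.53 (95% interval -8.25 to 3.20) and Alox5-/- LSC minus LSC was 2.86 (-2.87 to 8.58). Both intervals included 0, with limma adjusted p of 0.999 and 1.00. LSC minus HSC was -1.07 when HSC replicate 2 was left out and -3.99 when HSC replicate 1 was.

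Marco, a class A receptor of marginal zone and alveolar macrophages that binds bacteria and particles, had the closest replicates in HSC. Its scores were 20.3 and 20.2 in HSC, 17.1 and 18.6 in LSC, and 17.6 and 17.1 in Alox5-/- LSC. All 4 BCR-ABL arrays were below both HSC arrays, and the 2 BCR-ABL groups overlapped each other. LSC minus HSC was -2.42 ± 1.24 (SE), and Alox5-/- LSC minus HSC was -2.90 ± 1.24 (limma unadjusted p = 0.0940 and 0.0532). Both comparisons use the same HSC arrays. The gap narrowed to -1.88 and -2.01 when each array was centred on its median, and the sign held in every setting run for these 2 comparisons.

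Among class B receptors, Cd36 takes up long-chain fatty acids and oxidised lipoproteins and is abundant on platelets, microvascular endothelium and macrophages. Its scores were 18.0 and 15.8 in HSC, 15.4 and 15.9 in LSC, and 20.5 and 12.9 in Alox5-/- LSC. The 2 Alox5-/- LSC arrays were the highest and the lowest of the 6, so the group overlapped both others. Cd36 differed by -1.24 ± 2.38 (SE) for LSC minus HSC and by 1.04 ± 2.38 for Alox5-/- LSC minus LSC.

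Scarb1, the receptor that draws cholesteryl esters from high-density lipoprotein, scored 13.5 and 16.1 in HSC, 13.3 and 13.3 in LSC, and 18.2 and 14.4 in Alox5-/- LSC. The LSC arrays were the lowest pair and the closest to each other, and both Alox5-/- LSC arrays lay above them. The difference between those groups was 3.06 (95% interval -0.76 to 6.88; limma unadjusted p = 0.0999). Without Alox5-/- LSC replicate 1 it was 1.17, and without replicate 2 of that group 4.95.

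Scarb2, a lysosomal membrane protein that carries glucocerebrosidase to the lysosome, had the widest range. It scored 17.7 and 16.4 in HSC, 20.6 and 24.3 in LSC, and 23.6 and 13.8 in Alox5-/- LSC. LSC scores were above both HSC scores, by a mean of 5.42 (95% interval -1.91 to 12.8). The Alox5-/- LSC arrays stood on either side of HSC. Alox5-/- LSC minus LSC was -3.79, and 1.10 without Alox5-/- LSC replicate 2.

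Cd68, a heavily glycosylated protein of macrophage endosomes and lysosomes, scored 10.5 and 14.1 in HSC, 15.3 and 13.5 in LSC, and 11.0 and 13.5 in Alox5-/- LSC. LSC overlapped HSC and lay barely above Alox5-/- LSC, with the nearest arrays of those groups both at 13.5. The mean differences were 2.13 ± 1.60 (SE) for LSC minus HSC and -2.19 ± 1.60 for Alox5-/- LSC minus LSC. After centring the arrays, LSC and Alox5-/- LSC overlapped.

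Olr1, also called LOX-1, is a lectin-like receptor for oxidised low-density lipoprotein on endothelium and activated macrophages. It scored 16.1 and 18.2 in HSC, 17.5 and 19.4 in LSC, and 21.0 and 22.2 in Alox5-/- LSC. Both Alox5-/- LSC arrays were above all 4 others, and HSC and LSC overlapped. Alox5-/- LSC minus HSC was 4.44 (95% interval 1.02 to 7.86; limma unadjusted p = 0.0182, adjusted p = 0.697), and Alox5-/- LSC minus LSC was 3.16 (-0.26 to 6.58; unadjusted p = 0.0650, adjusted p = 1.00). Neither passed correction. Olr1 kept its sign in every setting run. Over those settings the adjusted p for Alox5-/- LSC against HSC ran from 0.559 to 1.00.

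Stab1, or stabilin-1, is an endocytic receptor of sinusoidal endothelium and alternatively activated macrophages. Its scores of 15.9 and 16.8 in HSC, 14.7 and 14.4 in LSC, and 15.9 and 14.3 in Alox5-/- LSC spanned the least of the 8 genes. The LSC arrays lay below both HSC arrays, with a difference of -1.77 ± 1.16 (SE). Alox5-/- LSC overlapped both.

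**Figure D2:**
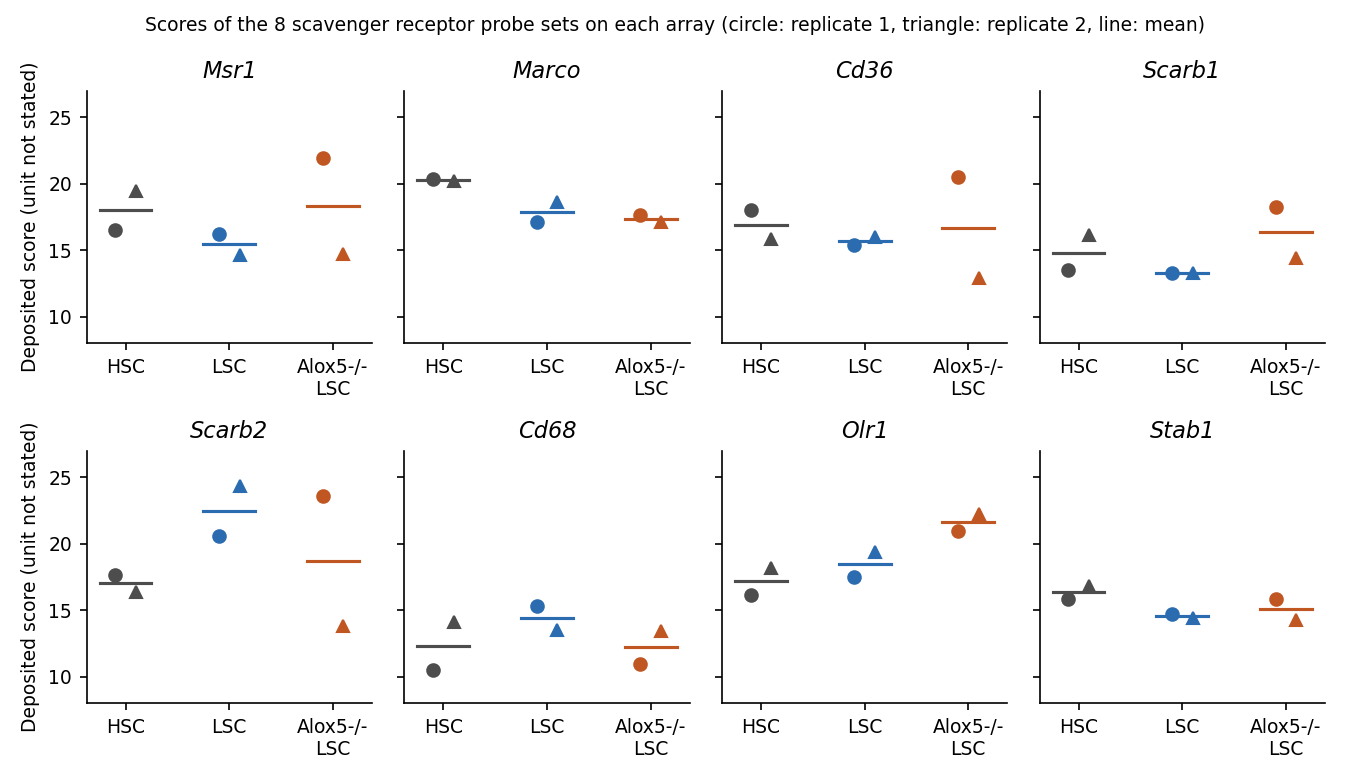
Deposited score (vertical axis, unit not stated) of each scavenger receptor probe set in HSC, LSC and Alox5-/- LSC, with replicate 1 as a circle, replicate 2 as a triangle and the mean of 2 arrays as a line. Olr1 is highest on both Alox5-/- LSC arrays (21.0 and 22.2), Marco is highest on both HSC arrays, and Msr1, Cd36 and Scarb2 have far-apart Alox5-/- LSC replicates.

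The first comparison, LSC against HSC, asked what BCR-ABL changed in these cells. Scores were higher in LSC for 3 of the 8 receptors (Scarb2, Cd68, Olr1) and lower for 5 (Msr1, Marco, Cd36, Scarb1, Stab1). Of all probe sets 37.1% were higher in LSC. At an adjusted p under 0.05 limma called 0 of 8, and 0% of all 21601 probe sets. At an unadjusted p under 0.05 it called 0 of 8, against 4.78% of all probe sets, and 1 of 8 (Scarb2) in a fit on the 4 arrays of these groups alone, against 5.55%. Groups did not overlap for 5 of 8 (Scarb2 above; Msr1, Marco, Scarb1 and Stab1 below), where the share over all probe sets was 34.4% (10.1% above and 24.3% below). After centring the arrays this was 7 of 8, with Cd68 and Olr1 added above, against 34.8% of all probe sets. The median difference was -1.38 over the 8 receptors and -0.47 over all probe sets. Unadjusted p for the receptors ran from 0.0940 (Marco) to 0.619 (Cd36), with every adjusted p at 0.999. Each sign held when 1 array was left out, but the sizes moved: Scarb1 to -0.22 without HSC replicate 2, and Cd36 to -0.16, Cd68 to 0.33 and Olr1 to 0.26 without HSC replicate 1. The 95% intervals reached from 2.76 to 7.33 units on either side of the estimates.

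The second comparison, Alox5-/- LSC against LSC, asked what the lack of Alox5 changed in BCR-ABL cells. Scores were higher in Alox5-/- LSC for 5 of the 8 receptors and lower for Marco, Scarb2 and Cd68, while 41.7% of all probe sets were higher. None passed at an adjusted p under 0.05 (0 of 8; 0% of all probe sets) or an unadjusted p under 0.05 (0 of 8; 3.48% of all probe sets). After centring, 2 of 8 had an unadjusted p under 0.05 (Scarb1 and Olr1; 3.97% of all probe sets), and after quantile normalization 1 of 8 (Scarb1; 4.05%). Without Alox5-/- LSC replicate 2 there were 3 of 8 (Msr1, Cd36 and Scarb1; 6.46%), and without replicate 1 there was 1 (Scarb2; 4.67%). The groups did not overlap for 3 of 8 (Scarb1 and Olr1 above, Cd68 below), against 30.7% of all probe sets (9.64% above and 21.1% below). After centring it was also 3 of 8, all above (Scarb1, Olr1 and Stab1), against 31.6%. The median difference was 0.77 over the receptors and -0.29 over all probe sets. This comparison and the first share the LSC arrays, so a low or high LSC score enters both with opposite sign.

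Alox5-/- LSC against HSC set both alterations together against the vector control. Scores were higher for Msr1, Scarb1, Scarb2 and Olr1 and lower for Marco, Cd36, Cd68 and Stab1, with Cd36 and Cd68 turning to higher after centring or quantile normalization. As deposited, 30.0% of all probe sets were higher in Alox5-/- LSC than in HSC. At an adjusted p under 0.05 limma called 0 of 8 and 0% of all probe sets. At an unadjusted p under 0.05 it called 1 of 8 (Olr1), with 7.11% of all probe sets called. In settings that kept both arrays of the 2 groups, only Marco was added. This was so with all 34499 probe sets tested (2 of 8, against 6.44%) and when the prior variance did not follow the mean (2 of 8, against 6.88%). Olr1 was not at an unadjusted p under 0.05 without HSC replicate 1 or without Alox5-/- LSC replicate 2. Groups did not overlap for 2 of 8 (Olr1 above, Marco below), against 35.7% of all probe sets (6.54% above and 29.1% below). They did not overlap for 4 of 8 after centring (Scarb1 and Olr1 above, Marco and Stab1 below), against 34.5%. The median difference was 0.14 over the receptors and -0.79 over all probe sets. Msr1 differed by 0.33 ± 2.41 (SE), and Cd68 by -0.06 ± 1.60.

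**Figure D3:**
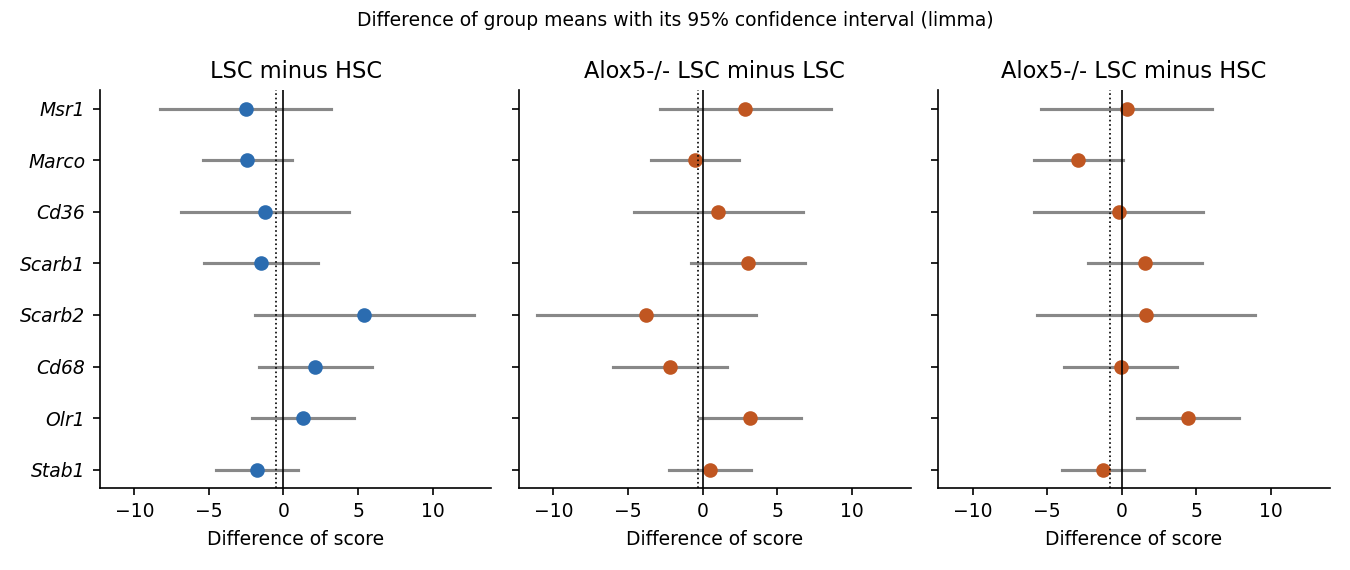
Difference of mean deposited score between groups (horizontal axis) for each scavenger receptor, with its 95% confidence interval from limma as a bar. The solid line marks 0 and the dotted line the median over all probe sets. The interval leaves out 0 for 1 gene in 1 comparison, Olr1 in Alox5-/- LSC minus HSC (1.02 to 7.86).

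The replicates of Alox5-/- LSC were far apart for part of the family. Replicate 1 exceeded replicate 2 by 7.19 for Msr1, 7.53 for Cd36, 9.78 for Scarb2 and 3.78 for Scarb1. Over all named probe sets the median of that gap was 1.20, and 16.4% had a gap at least that of Scarb1. A gap at least as large as that of Msr1, in the same direction, was found in 3.30%, as large as that of Cd36 in 2.76%, and as large as that of Scarb2 in 0.866%. Marco (0.54) and Stab1 (1.59) lay near or below the median gap, and Cd68 (-2.51) and Olr1 (-1.25) ran the other way. These 4 widest genes were picked after their values were seen. In HSC the replicate gap of the receptors ran from -3.60 (Cd68) to 2.17 (Cd36), and in LSC from -3.78 (Scarb2) to 1.79 (Cd68).

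Without Alox5-/- LSC replicate 1, Alox5-/- LSC minus LSC became -0.74 for Msr1, -2.72 for Cd36 and -0.29 for Stab1, each from a positive value. Without replicate 2 it was 6.45 for Msr1 and 4.81 for Cd36. The median score of replicate 2 was the lowest of the 6 arrays. Centring each array on its median left replicate gaps of 5.73 for Msr1, 6.07 for Cd36, 8.32 for Scarb2 and 2.32 for Scarb1.

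**Figure D4:**
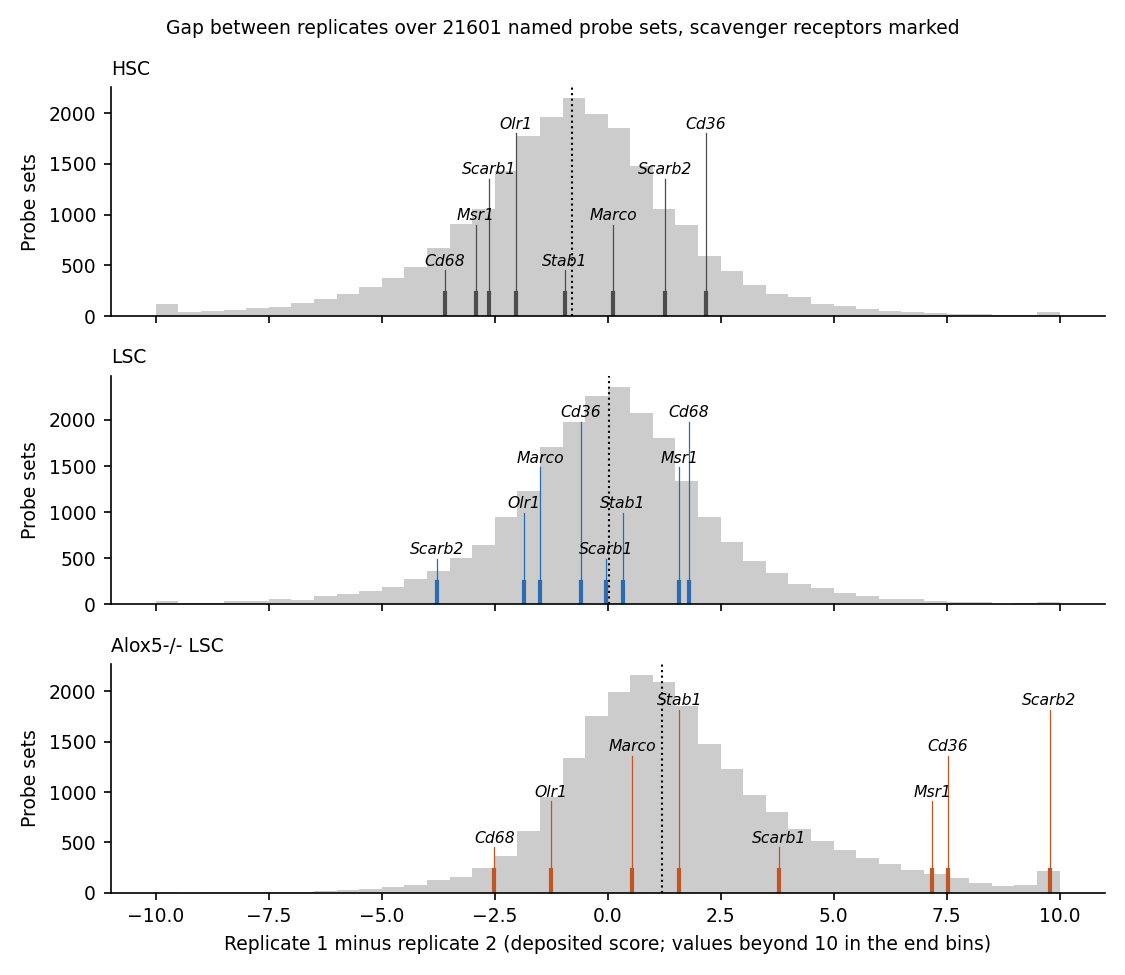
Replicate 1 minus replicate 2 in deposited score (horizontal axis) for HSC, LSC and Alox5-/- LSC, as a histogram over 21601 named probe sets, with the scavenger receptors as coloured ticks and the median as a dotted line. In Alox5-/- LSC, Msr1 (7.19), Cd36 (7.53) and Scarb2 (9.78) lie in the right tail.

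Likeness to Msr1 was measured as the root mean square difference over the 6 arrays, after centring each array on its median and each probe set on its own mean. The 5 nearest of the other 21600 probe sets were Rbm33 (0.38 units), Sdc1 (0.38), which encodes the proteoglycan syndecan-1, Armc9 (0.48), Mrpl24 (0.49), a mitochondrial ribosomal protein, and Setd7 (0.50), a lysine methyltransferase. The median over all probe sets was 2.62. All 5 had their highest score on Alox5-/- LSC replicate 1, as Msr1 did, which follows from choosing them by nearness to Msr1. Of the other receptors Scarb1 was nearest, at 1.21 units and rank 219, followed by Cd36 at 1.77 and rank 1628. Scarb2 was the farthest, at 4.07 and rank 20723, and Marco stood at 2.77. The receptors thus did not share 1 pattern over the arrays.

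Other scavenger and clearance receptors were read as a list of 26 genes, of which 25 had a probe set. None passed at an adjusted p under 0.05 in any comparison. At an unadjusted p under 0.05, LSC against HSC had 1 higher and 3 lower, where the shares over all probe sets were 0.995% and 3.79%. Mrc1, the macrophage mannose receptor, was higher at 20.4 against 13.0. Those lower were Cd163, the haemoglobin-haptoglobin receptor (15.4 against 20.7), Lrp8, a lipoprotein and reelin receptor (14.6 against 20.4), and Cd5l, a secreted macrophage protein (16.8 against 21.7). In Alox5-/- LSC against LSC, Cd5l was higher (21.8 against 16.8) and Mertk, a receptor tyrosine kinase for engulfing dying cells, was lower (14.1 against 18.5), with 0.847% of all probe sets higher and 2.63% lower. Alox5-/- LSC against HSC had 1 higher (Mrc1) and 2 lower (Mertk and Lrp8), with 0.778% of all probe sets higher and 6.33% lower. The list's median differences were -0.51, 0.01 and -0.59 in that order, beside -0.47, -0.29 and -0.79 over all probe sets.

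Genes of lipid handling after uptake numbered 17 measured of 20 listed, in 18 probe sets. Fabp4, a fatty acid carrier of macrophages and fat cells, scored 23.7 and 24.2 in HSC, 15.0 and 16.8 in LSC, and 22.5 and 15.8 in Alox5-/- LSC. LSC minus HSC was -8.07 ± 2.22 (SE; limma unadjusted p = 0.00852), and the Alox5-/- LSC arrays were split between the 2 levels. Ppard, a lipid-sensing nuclear receptor, was the other of 2 lower probe sets in LSC. In Alox5-/- LSC against LSC, 1 probe set was lower, Fabp5 (13.4 against 24.4), whose LSC arrays stood at 18.1 and 30.7. Against HSC 2 were lower in Alox5-/- LSC, Ppard and Nr1h3, the liver X receptor alpha. All of these were at an unadjusted p under 0.05, and 0 passed correction. At that threshold 3.79%, 2.63% and 6.33% of all probe sets were lower in the 3 comparisons. Of the list's 18 probe sets 9, 9 and 6 were higher, beside 37.1%, 41.7% and 30.0% of all probe sets. The list's median differences were -0.23, -0.10 and -0.84, beside -0.47, -0.29 and -0.79 over all probe sets.

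Among transcription factors of the monocyte lineage and of macrophage receptor genes, 9 of 10 were measured. Irf8, which directs monocyte and dendritic cell fate, scored 18.4 and 16.1 in HSC, 12.5 and 12.3 in LSC, and 11.0 and 14.0 in Alox5-/- LSC. All 4 BCR-ABL arrays lay below both HSC arrays, with unadjusted limma p of 0.0114 and 0.0124 for the 2 BCR-ABL groups against the same HSC arrays. Spi1, which encodes PU.1, had the smallest p in Alox5-/- LSC against LSC, at 15.4 against 12.4 (limma unadjusted p = 0.199, adjusted p = 1.00). Its scores in those 2 groups overlapped. Of the list's 10 probe sets 1, 0 and 1 had an unadjusted p under 0.05 in the 3 comparisons, beside 4.78%, 3.48% and 7.11% of all probe sets. No member passed correction. Scores were higher for 4, 7 and 5 of the 10 probe sets, beside 37.1%, 41.7% and 30.0% of all probe sets.

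Of 15 genes of PI3K, AKT, GSK3 and beta-catenin signalling 13 were measured, in 14 probe sets. Akt1, a kinase downstream of PI3K, scored 14.1 and 16.0 in HSC, 20.9 and 17.6 in LSC, and 13.4 and 14.7 in Alox5-/- LSC. Pik3cg, a catalytic subunit of PI3K in blood cells, scored 13.8 and 15.1, 17.0 and 19.8, and 13.8 and 12.0 in the same order. For both genes the LSC arrays were above all others. Unadjusted limma p was 0.0292 and 0.0266 against HSC and 0.0119 and 0.00642 against Alox5-/- LSC, with the same LSC arrays in both. Of the list's 14 probe sets 5 were higher in LSC than in HSC, where 37.1% of all probe sets were. In Alox5-/- LSC against LSC 7 were higher, beside 41.7%, and in Alox5-/- LSC against HSC 2, beside 30.0%. The list's median differences were -1.26, 0.08 and -1.47 in the 3 comparisons, beside -0.47, -0.29 and -0.79 over all probe sets. Foxo1, a transcription factor held in check by AKT, was lower in both BCR-ABL groups than in HSC (15.2 and 15.4 against 20.2). These 3 genes were the list's only ones at an unadjusted p under 0.05, with 3, 2 and 1 of 14 probe sets in the 3 comparisons beside 4.78%, 3.48% and 7.11% of all probe sets, and 0 passed correction.

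Markers of cells that carry these receptors were read beside them. Shares over all probe sets follow in the order LSC against HSC, Alox5-/- LSC against LSC and Alox5-/- LSC against HSC. At an unadjusted p under 0.05 limma called 4.78%, 3.48% and 7.11%. Higher scores were found in 37.1%, 41.7% and 30.0%, with median differences of -0.47, -0.29 and -0.79. Macrophage and monocyte markers (11 of 12 genes measured, 0 at a score of 0) summed to 189 and 212 in HSC, 187 and 190 in LSC, and 192 and 177 in Alox5-/- LSC. In LSC against HSC 4 of 11 were higher, with a list median of -1.02, and 2 had an unadjusted p under 0.05, C1qb (12.0 against 18.9) and Cx3cr1 (13.6 against 20.2). In Alox5-/- LSC against LSC, C1qb was higher (15.4) and Vsig4 lower (9.43 against 11.9), while 4 of 11 were higher, with a list median of -1.14. C1qb was lower in Alox5-/- LSC than in HSC (15.4 against 18.9), where 3 of 11 were higher, with a list median of -1.03. Endothelial markers (8 of 8, 0 at a score of 0) summed to 135 and 138, 134 and 134, and 142 and 123 in the same group order. In LSC against HSC 5 of the 8 were higher, with a median of 0.23, and the 1 at an unadjusted p under 0.05 was lower, Kdr (12.3 against 15.5). Megakaryocyte and platelet markers (4 of 8, 0 at a score of 0) summed to 59.2 and 64.3, 65.6 and 64.4, and 63.6 and 58.1, with 2 of 4 higher in LSC than in HSC, among them Itga2b (16.7 against 13.1), and Pf4 lower in Alox5-/- LSC than in LSC (12.3 against 16.2). Granulocyte markers (8 of 8) summed to 101 and 111, 103 and 101, and 103 and 91.5, with Ngp lower in Alox5-/- LSC than in HSC (11.0 against 14.7). In that comparison 1 of the 8 was higher, with a median of -0.76. B and T cell markers (7 of 8) summed to 116 and 129, 109 and 105, and 110 and 100.4. Cd79a was lower in LSC (15.4) and in Alox5-/- LSC (13.3) than in HSC (26.0). Cd3d was lower in Alox5-/- LSC than in HSC (12.1 against 15.1). Of these 7 markers 2 were higher in LSC than in HSC, with a median of -1.49. In Alox5-/- LSC against HSC 3 of the 7 were higher, with a median of -1.04. Erythroid markers (3 of 6) summed to 44.3 and 48.3, 56.8 and 51.6, and 43.4 and 46.4, with Rhag higher in LSC (23.4) than in HSC (12.4) and Alox5-/- LSC (14.8). The other 2 erythroid markers were lower in LSC than in HSC, the list's median was -0.78, and Klf1 was lower in Alox5-/- LSC than in HSC (15.3 against 18.8). Each marker named here had an unadjusted limma p under 0.05 and none passed correction. The sums are of deposited scores, so a list's sum moves with the median of its array. After centring, macrophage and monocyte markers averaged 1.11 and 1.20 on the 2 Alox5-/- LSC arrays. Granulocyte markers averaged -3.51 and -3.47 there, and endothelial markers 1.35 and 0.51. Megakaryocyte and platelet markers averaged -0.46 and -0.40, B and T cell markers -0.69 and -0.56, and erythroid markers -1.89 and 0.57. The part of any of these cell types in the receptor scores was not tested.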

How the data were processed

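RNA of 6 sorted mouse samples was hybridised to Affymetrix whole-transcript arrays from 100 to 300 ng of total RNA, per the labels' protocols. The authors deposited 1 score per probe set and array, of unstated unit. The submitters' processing notes name RMA and Affymetrix Expression Console 1.1, and the genome build is not given in the sources used here. Of 35557 probe sets 1058 were empty, 11633 with values had no listed symbol and 1265 had several. The remaining 21601 (19934 genes) were tested on the deposited score with limma 3.58.1 in R 4.3.3, with 1 mean per group, a spread shared over 6 arrays (3 residual degrees of freedom) and a prior variance that follows the mean. Tests were two-sided, with Benjamini-Hochberg adjustment over all 21601 and a threshold of 0.05. Groups and replicate numbers came from the titles. Receptors and lists were chosen with earlier results of these data known. Of each list, genes at an unadjusted p under 0.05 and the gene of smallest p were eligible for naming. The fit was tested on simulated data in which 200 probe sets were shifted by 4, 8, 16 or 24 units in 1 group. At an adjusted p under 0.05 it called 1.33% to 2% of the shifts of 4 units. Of the shifts of 8 units it called 55.3% to 63.3%. False calls made up 5.51% to 8.39% of all calls. The simulated noise was normal and independent between arrays, without the differences between array medians seen in the deposited scores. The number of arrays limits the precision. Alternatives changed the scaling, the probe sets tested, the model and the arrays.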

Additional observations from a re-analysis of the deposited data

How the results depend on the processing

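No probe set passed correction under any of the 16 alternatives, and the smallest adjusted p (limma) of a receptor in any of them was 0.559. Of 24 receptor differences (8 genes in 3 comparisons), 12 kept their sign in every setting (Cd68 has no value under the filter that leaves out probe sets below the 25th percentile). With the number in the description label as a covariate, sign changed for Cd36 in LSC minus HSC (0.85), for Cd36 (-3.14) and Cd68 (0.13) in Alox5-/- LSC minus LSC, and for Msr1 (-0.80), Scarb2 (-0.40) and Cd68 (1.10) in Alox5-/- LSC minus HSC. In that last comparison Cd36 was 0.37 after quantile normalization and 0.69 after centring, and Cd68 was 1.04, 0.83 and, on log2(value + 1), 0.00057. Leaving out 1 array at a time, Alox5-/- LSC minus LSC ran from -0.74 to 6.45 for Msr1, -1.23 to 0.26 for Marco, -2.72 to 4.81 for Cd36, -8.68 to 1.10 for Scarb2 and -0.29 to 1.30 for Stab1. Alox5-/- LSC minus HSC ran from -3.26 to 3.92 for Msr1, -3.97 to 3.56 for Cd36, -0.36 to 3.43 for Scarb1, -3.25 to 6.53 for Scarb2 and -1.86 to 1.74 for Cd68. A group left with 1 array is assumed to vary like the others.

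Probe sets at an unadjusted p under 0.05 numbered 1033, 751 and 1536 in the 3 comparisons, in the order LSC against HSC, Alox5-/- LSC against LSC and Alox5-/- LSC against HSC. With all 34499 probe sets they were 1704, 1365 and 2223. Leaving out 1 array gave 681 to 1699, 605 to 1396 and 902 to 2217. The share that was lower was 79.2%, 75.6% and 89.1% as deposited, 57.3%, 51.6% and 54.6% after centring, and 56.4%, 53.5% and 54.7% after quantile normalization. With the replicate number as a block the counts were 884, 635 and 1279, with 0 calls and the same differences. Same-numbered arrays did not deviate together (correlations of 0.0032, -0.059 and -0.055 across probe sets), so the numbers were not taken as pairs. The unknown unit and 2 arrays a group limit every value. The cause of the changes of sign was not tested.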
